A study of Mus musculus with 4 samples.

Results

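The LIF and STAT3 pathway is described here by 10 genes: the receptor chain genes Lifr and Il6st, the kinase gene Jak1, Stat3 itself, and the STAT3 target genes Socs3, Pim1, Pim3, Junb, Gbx2 and Bcl3. They were chosen by gene symbol, and all of their 25 probe sets were taken, out of 18193 genes and 45101 probe sets on the array. The cells were mouse embryonic stem (ES) cells with altered copies of BAF250, the ARID subunit of SWI/SNF, a complex that remodels chromatin. There were 4 Affymetrix arrays, each with the RNA of 1 culture: 2 homozygous knock-out lines (ko1 and ko2), 1 heterozygous knock-out line and 1 wild type line. The cells of all 3 genotypes grew without feeder cells on gelatin, in medium with 10% fetal bovine serum and LIF at 500 to 1000 units per ml. The labels do not give the altered part of the gene, the age of the lines or their parent strain, and no culture without LIF was among the 4, so the arrays show transcript levels under LIF and not the response to it.

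Leukaemia inhibitory factor (LIF) binds a receptor made of the chains LIFR and IL6ST, and the kinase JAK1 bound to that receptor then phosphorylates STAT3. Phosphorylated STAT3 moves into the nucleus and activates genes that help to keep mouse ES cells from differentiating, among them those of the Kruppel-like factor KLF4 and of TFCP2L1. It also activates Socs3, whose product shuts the receptor off again. Phosphorylation is not visible on an expression array.

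The values are MAS5 signals on a linear scale, and the arrays differed in level. Median signals were 2.70 (ko1), 2.61 (ko2), 2.74 (heterozygous) and 4.01 (wild type). The median gene therefore differed by -0.75 on the log2 scale for homozygous minus wild type, by -0.03 for homozygous minus heterozygous and by -0.68 for heterozygous minus wild type. Each log2 difference or fold printed here has the shift of its comparison subtracted, while limma p-values are those of the uncentred signals unless said otherwise. A signal was called above background when it exceeded the brightest of 27 probe sets for bacterial transcripts that were not spiked in, at 5.55 (ko1), 3.82 (ko2), 6.92 (heterozygous) and 7.57 (wild type). The homozygous genotype had 2 arrays and the others 1, so the spread between ko1 and ko2 stood in for that of all groups, and as nothing says that cultures were repeated, that spread may be technical and is all the p-values measure. Arid1a, which encodes BAF250a, read 7.03 and 3.57 in the homozygous lines, 50.4 in heterozygous and 109 in wild type on its brighter probe set (1448709_at). Its other probe set (1417440_at) read 17.3 in ko1 and 1.06 in ko2, against 24.1 in heterozygous and 42.9 in wild type. Arid1a was thus above background in ko1 on both probe sets and in ko2 on neither, the knock-out lines differed widely on the second, and whether either probe set lies in the altered part of the gene is not given. All 8 ES cell markers, Pou5f1 and Nanog among them, were above background on all 4 arrays.

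Of the 10 genes, 1 fell in homozygous against wild type cells, Pim3, and 0 rose. With each array centred on its median 0 of 10 passed (adjusted p = 0.143 for Pim3), and the call also ended under 5 other alternatives. The background was 0.612% of the 13729 genes tested called lower and 0.401% called higher (limma, adjusted p under 0.05), and 0.0364% and 0.328% after that centring. At an unadjusted p under 0.05 the count was still 1, against 11.9% of all genes tested. The median log2 difference of the 10 genes was 0.04 against 0 for all tested genes by construction, with a range of -1.76 to 1.38, and 7 of the 10 lay within the middle 50% of all tested genes. The plot of signals by array shows how the 10 genes stood on each array.

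**Figure D1:**
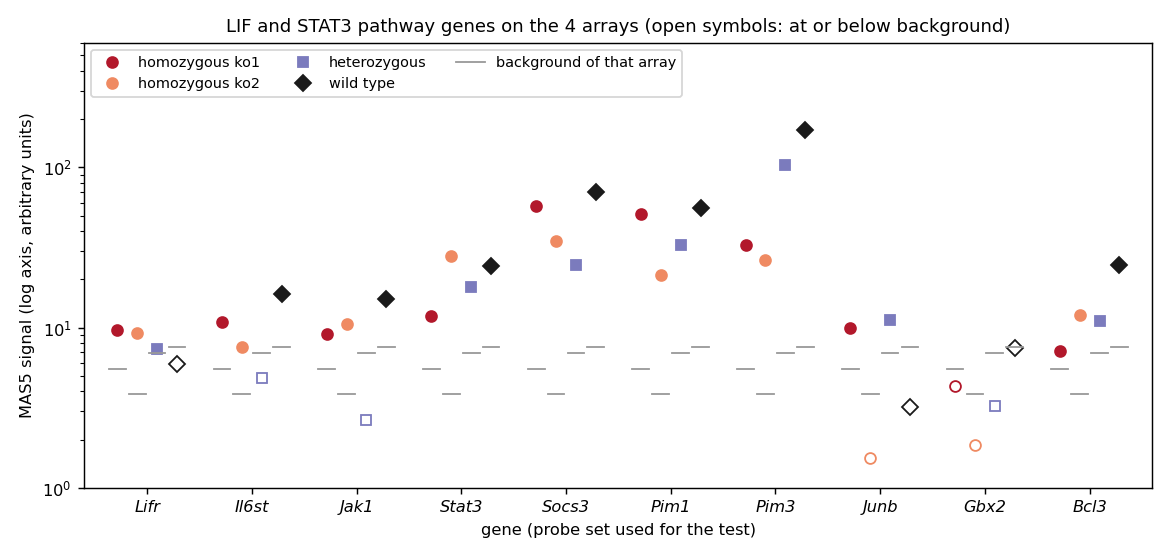
MAS5 signal (log axis) of the probe set used for each of the 10 genes in the homozygous lines ko1 and ko2 (circles), the heterozygous line (square) and wild type (diamond); each point is 1 array, open symbols lie at or below that array's background, drawn as a grey dash. Pim3 read 32.9 and 26.6 in the homozygous lines, below 104 in heterozygous and 171 in wild type, while Gbx2 was at background on all 4 arrays.

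The receptor chain genes were dim. Lifr, which encodes the LIF-binding chain, read 9.69 in ko1 and 9.31 in ko2, against 7.35 in heterozygous and 5.90 in wild type on its brightest probe set (1454984_at). Lifr was the only member with both homozygous lines above both other arrays after the array medians were equalised, as was the case for 18.1% of all tested genes. The wild type value was below background, so the homozygous lines were at least 1.82-fold higher by this measure, without passing the test (fitted difference 1.38 ± 0.83 (SE), limma adjusted p = 0.724). A second probe set (1425107_a_at) read 7.34 and 4.11 in the homozygous lines, 0.722 in heterozygous and 4.86 in wild type, and the third was below background on all 4 arrays. Heterozygous minus wild type turned from 0.97 on the brightest probe set to -0.42 when the probe sets were averaged, so the heterozygous position depends on the probe set.

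Il6st, the gene of the signalling chain that LIF shares with interleukin 6, read 10.8 in ko1 and 7.56 in ko2, against 4.86 in heterozygous and 16.1 in wild type (1452843_at). Heterozygous was lowest and at background, and the homozygous lines were between it and wild type. Homozygous minus wild type was -0.04 ± 0.79 (95% interval -1.62 to 1.54; adjusted p = 0.649). Of the other 3 Il6st probe sets, 1 was above background on a single array and 2 on none; the first of these (1421239_at) read 2.82 and 0.439 in the homozygous lines, 1.53 in heterozygous and 10.1 in wild type.

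Jak1, the main kinase of this receptor, showed a like order of signals on its brightest probe set (1433805_at): 9.08 in ko1 and 10.6 in ko2, against 2.66 in heterozygous and 15.2 in wild type. Relative to the median gene ko2 was the highest array. Homozygous minus wild type was 0.15 ± 0.83 (adjusted p = 0.736), and it turned to -0.46 with probe sets averaged and to -0.12 without ko2. The low value was that of the heterozygous array, at background, and the homozygous lines were at least 1.34-fold higher than it (fitted difference 1.69 ± 0.83, adjusted p = 0.732). The probe set 1433803_at placed heterozygous differently, with 2.35 and 7.43 in the homozygous lines, 7.61 in heterozygous and 8.22 in wild type. With that averaging, homozygous minus heterozygous was -0.29 for Jak1 and -0.22 for Il6st.

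Stat3 was above background on all arrays on 2 of its 4 probe sets. The brightest (1426587_a_at) read 11.7 in ko1 and 28.2 in ko2, against 17.8 in heterozygous and 24.2 in wild type. The next (1460700_at) read 18.7 and 19.3 in the homozygous lines, 9.84 in heterozygous and 32.2 in wild type. The homozygous lines thus spanned the other arrays on the first and agreed closely with each other on the second. Homozygous minus wild type was 0.35 ± 0.62 on the first (95% interval -0.90 to 1.60; adjusted p = 0.764; -0.43 without ko2) and 0.01 on the second. Homozygous minus heterozygous was 0.06 ± 0.62 (adjusted p = 0.995).

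**Figure D2:**
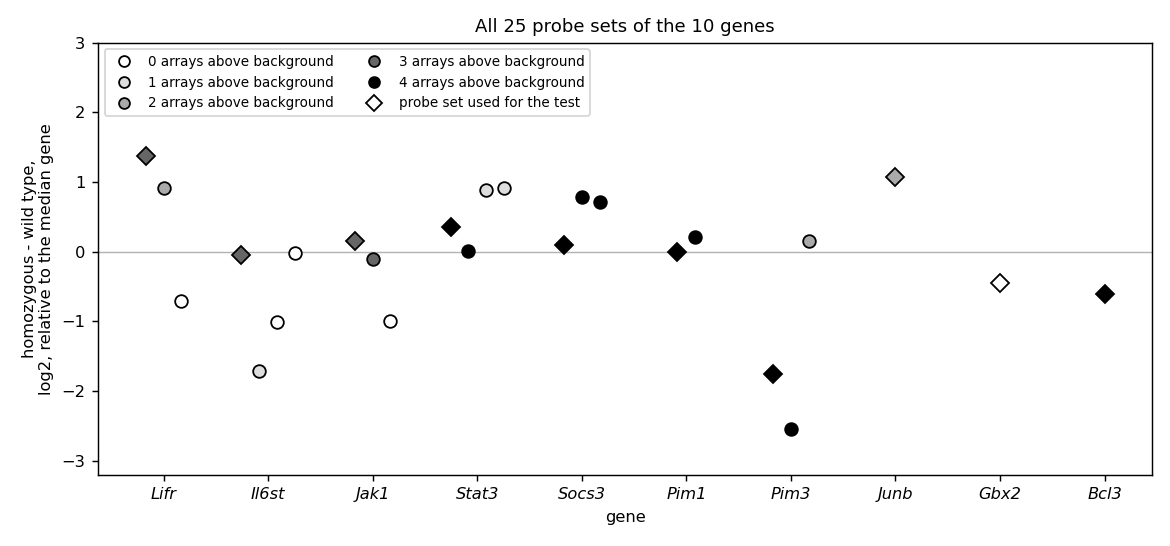
Log2 difference of homozygous minus wild type, relative to the median gene, for all 25 probe sets of the 10 genes; fill gives the number of arrays above background (white 0, black 4) and diamonds mark the probe sets used for the test. The 2 Pim3 probe sets above background on all arrays stand at -1.76 and -2.55, and the 3 Socs3 probe sets between 0.09 and 0.79.

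Socs3 was measured most fully, with its 3 probe sets above background on all 4 arrays. The SOCS3 protein binds the activated receptor and blocks JAK activity, and its gene is a widely used readout of STAT3 activity. On the brightest probe set (1416576_at) Socs3 read 57.8 in ko1 and 34.6 in ko2, against 24.7 in heterozygous and 70.6 in wild type. The homozygous signals as read lay between heterozygous and wild type, while relative to the median gene ko1 was the highest array. Homozygous minus wild type was 0.09 ± 0.54 (95% interval -1.0 to 1.19, adjusted p = 0.59). The second probe set (1455899_x_at) read 26.1 and 17.0 in the homozygous lines, 17.1 in heterozygous and 20.4 in wild type. The third (1456212_x_at) read 12.8 and 9.55 in the homozygous lines, with 7.20 in heterozygous and 11.2 in wild type. These 2 stood at 0.79 and 0.72 for homozygous minus wild type. They put the homozygous lines further above wild type, relative to the median gene, than the brightest did. Both names end in _x_at, and such probe sets can also bind transcripts of other genes. On the brightest the difference was -0.27 without ko1, -0.01 with the larger pseudocount and -0.04 with dim genes kept. On the brightest one heterozygous was lowest: homozygous minus heterozygous was 0.87 ± 0.54 (adjusted p = 0.828) and heterozygous minus wild type -0.81 ± 0.63 (adjusted p = 0.609).

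STAT3 dimers bind the palindrome TTCNNNGAA, and the promoters of the 10 genes were searched for it because STAT3 is a known activator of several of them. In the RefSeq promoter windows of assembly GRCm38.p6 (250 bases before to 50 after the gene start), all 10 genes had a window, 12 in all, and 1 of the 12 held the palindrome, that of Socs3. Of all 32851 windows of that length 8.3% held it. The palindrome reads the same on both strands, so each match was counted once. The stretch of the Socs3 promoter around the match, with the palindrome in capitals, has the first base of the match at position -154 from the gene start and lies on the minus strand at chr11:117969472-117969560. The 150 bases before the start of Pim3, the gene called lower before centring, lie on the plus strand at chr15:88862044-88862193 and hold no match, nor does the rest of its window.
Socs3: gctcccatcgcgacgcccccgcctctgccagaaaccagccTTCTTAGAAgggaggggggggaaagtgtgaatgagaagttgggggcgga
Pim3: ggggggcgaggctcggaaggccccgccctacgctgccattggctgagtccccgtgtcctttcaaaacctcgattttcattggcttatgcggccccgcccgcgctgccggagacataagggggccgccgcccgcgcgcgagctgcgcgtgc
A match describes these letters only; binding was not measured.

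Pim3 encodes a serine/threonine kinase of the PIM family, which promotes survival and growth downstream of STAT3. On its brightest probe set (1437100_x_at) Pim3 read 32.9 in ko1 and 26.6 in ko2, against 104 in heterozygous and 171 in wild type. Both homozygous lines were lower than both other arrays, and ko1 and ko2 lay close together, while heterozygous and wild type were separated by about the general level of their arrays. Homozygous minus wild type was -1.76 ± 0.53 (SE, 95% interval -2.83 to -0.68), a 3.38-fold lower level. The limma adjusted p of 0.00642 belongs to the uncentred difference of -2.5, which includes the shift between arrays. The difference relative to the median gene was -1.91 without ko1 and -1.77 without ko2, with no test. With each array centred on its median the difference was again -1.76 (adjusted p = 0.143). With that centring 45 genes of the whole array were called higher (0.328%) and 5 lower (0.0364%), against 55 and 84 without it. The call also ended after quantile normalization (adjusted p = 0.0946), with dim genes kept in the test (adjusted p = 0.052), with probe sets averaged (adjusted p = 0.277), without the intensity trend (adjusted p = 0.545) and with scaling to the spiked transcripts (adjusted p = 0.365).

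Against heterozygous cells the homozygous lines stood at -1.76 ± 0.53 for Pim3 as well, without passing the test (adjusted p = 0.147), and against wild type and heterozygous as 1 group the value was -1.82 (adjusted p = 0.0299). Heterozygous minus wild type was -0.04 ± 0.62 (95% interval -1.28 to 1.21; adjusted p = 0.74). A probe set ending in _x_at can bind transcripts of more than 1 gene, so the other probe sets matter here. The probe set 1451069_at read 7.25 and 4.46 in the homozygous lines, 16.5 in heterozygous and 62.1 in wild type, all above background. It put the homozygous lines further down, at -2.55 (adjusted p = 0.00175 in a fit without _x_at and _s_at probe sets, chosen after seeing the data), with heterozygous minus wild type at -1.19 in the same fit (adjusted p = 0.58). The third, 1438956_x_at, read 10.7 and 3.40 in the homozygous lines, 1.44 in heterozygous and 9.55 in wild type, so its ko2 and heterozygous values were at background and it did not separate the genotypes (0.16 for homozygous minus wild type).

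The 3' over 5' signal ratio of the actin controls, a sign of RNA quality, was 5.01 (ko1), 2.61 (ko2), 2.86 (heterozygous) and 1.30 (wild type). That of Gapdh was 2.57 (ko1), 1.21 (ko2), 1.27 (heterozygous) and 1.10 (wild type). Wild type was lowest in both, and the heterozygous ratios lay between those of ko1 and ko2. Markers of extraembryonic endoderm, a cell type that ES cultures can give rise to, had summed signals of 6858 and 3842 in the homozygous lines, 108 in heterozygous and 148 in wild type. All 10 were above background in both homozygous lines, against 4 in heterozygous and 5 in wild type, where Col4a2, Gata6, Lamb1, Sox17 and Sox7 were at background. The 8 ES cell markers summed to 744 and 847 in the homozygous lines, 1882 in heterozygous and 3183 in wild type. By limma's test 7 of the 10 endoderm markers rose and 5 of the 8 ES cell markers fell in homozygous against wild type cells, and after median centring 6 and 2 did. The 6 fibroblast markers summed to 34.9 and 45.4 in the homozygous lines, with 3 of 6 above background in each, to 16.3 in heterozygous with 0 of 6, and to 23.3 in wild type with 1 of 6. The part of RNA quality and of these cell types in the Pim3 result was not tested, and in whole cultures fewer cells of a type and less RNA per cell cannot be told apart.

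Pim1, the founding member of the same kinase family, did not pass the test. Its brighter probe set (1435458_at) read 50.8 in ko1 and 21.3 in ko2, against 32.9 in heterozygous and 55.9 in wild type. The homozygous lines lay on either side of heterozygous, so the genotypes overlapped, and homozygous minus wild type was 0.00 ± 0.56 (95% interval -1.13 to 1.13; adjusted p = 0.551). The other probe set (1423006_at) had the lines the other way round, 8.34 in ko1 and 17.4 in ko2, with 7.12 in heterozygous and 17.8 in wild type. Pim2, the remaining family member, read 13.9 and 6.78 in the homozygous lines, 34.5 in heterozygous and 43.9 in wild type on its only probe set. All 4 values were above background with both homozygous lines lowest, and homozygous minus wild type was -1.35 ± 0.61, short of the threshold (adjusted p = 0.0863). Whether Pim3 differs from Pim1 and Pim2 in its response was not tested.

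The tested genes most like Pim3 over the 4 arrays, by the smallest Euclidean distance of centred log2 values, were Zfp219 (distance 0.0352), Slc25a40 (0.081) and Dusp21 (0.123). Zfp219, which encodes a zinc finger protein, read 6.02 and 4.67 in the homozygous lines, 19.99 in heterozygous and 32.4 in wild type (homozygous minus wild type -1.72, adjusted p = 0.0726). Slc25a40, a mitochondrial carrier gene, and Dusp21, a phosphatase gene, were at or below background on all 4 arrays, so their likeness rests on dim values. With 4 arrays such distances are a description only.

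Bcl3, which encodes an atypical IκB protein that acts in the nucleus, read 7.15 in ko1 and 11.9 in ko2, against 11.0 in heterozygous and 24.5 in wild type. Wild type was highest and the homozygous lines lay on either side of heterozygous. Homozygous minus wild type was -0.60 ± 0.70 (95% interval -1.99 to 0.80; adjusted p = 0.437). Junb, a gene of the AP-1 transcription factor family, split by array and not by genotype: it read 10.0 in ko1 and 1.53 in ko2, against 11.2 in heterozygous and 3.19 in wild type, with ko2 and wild type at background. Homozygous minus wild type was 1.07 ± 1.08 (adjusted p = 0.891), and -0.07 without ko1. Gbx2, a homeobox gene that can sustain ES cell self-renewal downstream of STAT3, read 4.34 and 1.86 in the homozygous lines, 3.22 in heterozygous and 7.47 in wild type. All of these values were at or below background, so no fold is given (adjusted p = 0.651 for homozygous minus wild type).

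**Figure D3:**
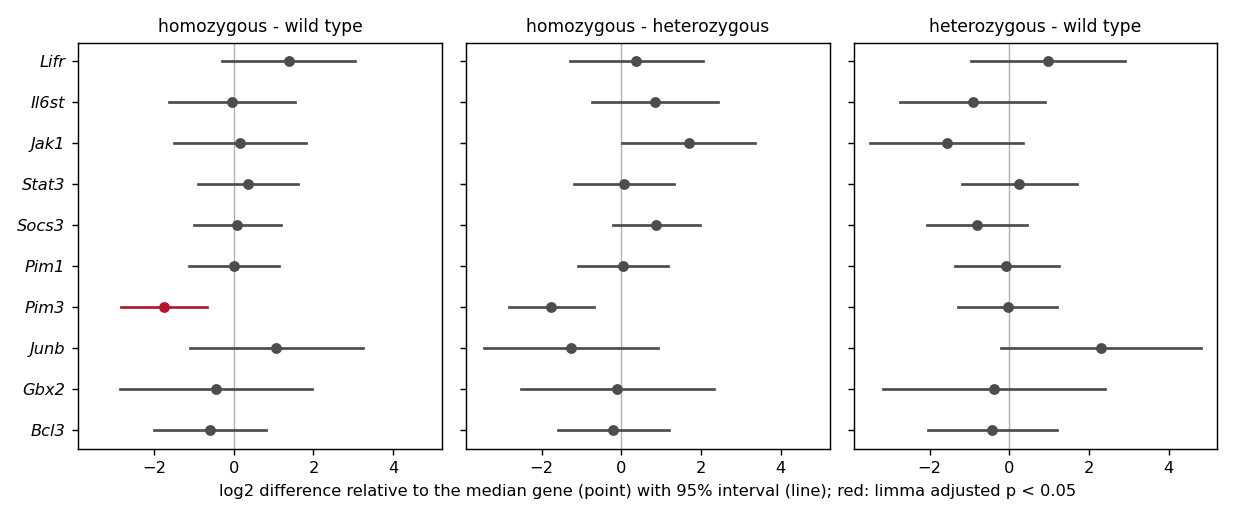
Log2 differences relative to the median gene (points) with 95% intervals from limma (lines) for the 10 genes in the 3 comparisons. Red marks a limma adjusted p under 0.05 on the uncentred signals. Pim3 in homozygous minus wild type (-1.76, interval -2.83 to -0.68) is the only red point, and the interval of Gbx2 there runs from -2.86 to 1.96.

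In homozygous minus heterozygous 0 of the 10 genes passed limma's test (1 at an unadjusted p under 0.05, Pim3), against 0.699% of all tested genes called higher, 0.0583% called lower (0.758% in all) and 6.87% at that unadjusted p. After median centring the members' count was again 0, against 0.32% higher and 0.0291% lower. In heterozygous minus wild type 0 of 10 passed (2 at an unadjusted p under 0.05, Jak1 and Socs3), against 0.0146% and 7.57% of all tested genes. In both of these the brightest probe sets of Jak1 and Socs3 were lowest in heterozygous, which the other probe sets of each gene did not share in full. In heterozygous minus wild type Junb had the widest difference, 2.30 ± 1.25 (adjusted p = 0.71), with wild type at background, so at least 2.19-fold.

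Around these 10 genes, 53 further genes of the pathway were taken in 5 lists, of which 50 had a probe set and 45 passed the signal filter. In homozygous minus wild type 0 rose and 0 fell by limma's test beside 1.01% of all tested genes called in either direction. At an unadjusted p under 0.05 the count was 10 of 45, beside 11.9% of all tested genes. Ier3 alone of these was higher. The others were lower on the uncentred signals, in which the median gene itself stood at -0.75. The median log2 difference of the 45 genes was 0.02. The medians of the lists were 0.42 for 7 cytokine and receptor chain genes, -0.03 for 8 kinases and adaptors, 0.18 for 3 other STAT genes, 0.01 for 13 brakes on the pathway and -0.20 for 14 further LIF targets.

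**Figure D4:**
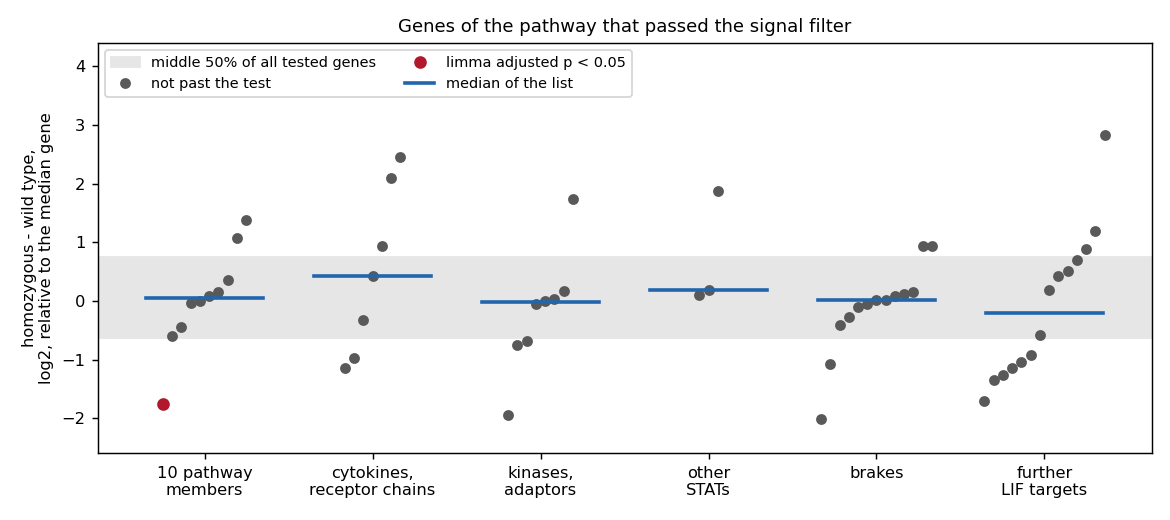
Log2 difference of homozygous minus wild type, relative to the median gene, for each tested gene (points) of the 10 pathway members and of the 5 further lists; blue bars are list medians and the grey band, -0.63 to 0.74, holds the middle 50% of all tested genes. The red point is Pim3 at -1.76 (limma adjusted p under 0.05 on the uncentred signals), and the list of further LIF targets spreads from -1.70 to 2.83.

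The spread was wide among the further LIF targets. In 6 of 14 genes ko1 and ko2 were the lowest arrays, relative to the median gene, and in 5 of 14 the highest, against 21.5% and 18.1% of all tested genes. Those below were Klf5, Myc, Pim2, Egr1, Mcl1 and Sgk1, and those above were Klf4, Tbx3, Fos, Ier3 and Cebpb. Fos was above background in ko2 alone, so its place rests on dim values. These orders are those of the probe sets used for the test. The other probe sets of Klf5, Tbx3 and Mcl1 went in both directions for homozygous minus wild type. The largest difference of homozygous minus wild type was that of Ier3, an immediate early gene linked to survival, with 27.6 and 20.4 in the homozygous lines, 13.9 in heterozygous and 5.09 in wild type. Wild type was below background, so the excess in homozygous cells was at least 4.38-fold (adjusted p = 0.13). Myc, the gene of the growth-promoting transcription factor c-MYC, read 0.332 and 2.23 in the homozygous lines, both at background, 12.8 in heterozygous and 8.66 in wild type. Homozygous Myc was lower by at least 1.19-fold against wild type and by at least 2.61-fold against heterozygous (adjusted p = 0.423 against wild type).

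The next 4 genes of that list lay outside the rule for named genes and were added after their values were seen, for their role in ES cells or their closeness to the threshold. Klf4 read 30.9 and 28.0 in the homozygous lines, 15.2 in heterozygous and 21.3 in wild type (1.19 ± 0.58 against wild type, adjusted p = 0.718), and Tfcp2l1 read 12.3 and 9.67 in the homozygous lines, 11.7 in heterozygous and 16.5 in wild type (0.18 ± 0.69, adjusted p = 0.706). Klf5, another Kruppel-like factor gene, went the other way from Klf4 on its brightest probe set. It read 37.7 and 24.6 in the homozygous lines, 68.6 in heterozygous and 108 in wild type (-1.05 ± 0.54, adjusted p = 0.0999). Its other probe sets stood at -0.63 and 0.20, the latter above background on 1 array, and the other Klf4 probe set stood at 1.54. Mcl1, which encodes a survival protein of the BCL2 family, read 18.1 and 27.5 in the homozygous lines, 38.3 in heterozygous and 92.1 in wild type (-1.27 ± 0.55, adjusted p = 0.0521). The other 5 Mcl1 probe sets, also above background on all arrays, stood between -1.06 and 0.51.

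Among the brakes, Socs2, a relative of Socs3 known for restraining growth hormone signalling, read 2.42 in ko1 and 8.56 in ko2, against 9.60 in heterozygous and 35.6 in wild type. Wild type was highest, and the homozygous lines were far apart, with ko1 at background (-2.02 ± 0.79, adjusted p = 0.0743). Its other 5 probe sets stood between -0.68 and 1.35, and with probe sets averaged the difference was -0.23. Pias2, of the family of protein inhibitors of activated STAT, read 3.80 in ko1, at background, and 9.36 in ko2, against 11.8 in heterozygous and 23.0 in wild type (-1.07 ± 0.76, adjusted p = 0.334). Its difference was -0.49 without ko1 and -1.82 without ko2. Pias1, of the same family, read 13.9 and 6.72 in the homozygous lines, 5.42 in heterozygous, at background, and 8.37 in wild type (0.94 ± 0.83, adjusted p = 0.916).

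Among the kinases and adaptors, Ptpn11, the gene of the phosphatase SHP2 that links the receptor to the MAP kinase pathway, read 35.4 and 24.5 in the homozygous lines, 13.2 in heterozygous and 14.5 in wild type. Both homozygous lines were highest, and all 4 values were above background (1.73 ± 0.60, adjusted p = 0.482). Another probe set was above background in the homozygous lines alone, at 7.08 and 5.39, while the remaining probe set read 2.15 and 7.35 in these lines, 6.26 in heterozygous and 11.0 in wild type. Tyk2, a JAK family kinase gene, read 0.530 and 3.43 in the homozygous lines, 5.08 in heterozygous, all 3 at background, and 13.6 in wild type. On this probe set it was at least 1.82-fold lower in homozygous than in wild type (adjusted p = 0.38). The other Tyk2 probe set (1417306_at), at background on all 4 arrays, stood at 1.07. With probe sets averaged the difference was -0.57. Sos1, a Ras activator gene, was above background in ko2 alone on its brightest probe set, at 4.10 (adjusted p = 0.604). Another Sos1 probe set (1421885_at) was above background in wild type alone, at 8.45.

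The cytokine and receptor genes were mostly near background. Il6ra, the interleukin 6 receptor chain gene, read 7.73 and 8.38 in the homozygous lines, 13.2 in heterozygous and 2.74 in wild type. Heterozygous was highest, and wild type was at background, which puts homozygous cells at least 1.56-fold above it (adjusted p = 0.505). Ctf1, the gene of the related cytokine cardiotrophin, read 1.70 in ko1 and 6.79 in ko2, against 4.69 in heterozygous and 15.0 in wild type, with ko1 and heterozygous at background (-1.15 ± 1.02, adjusted p = 0.444). Its difference was -0.32 without ko1 and -2.14 without ko2. Osm, the oncostatin M gene, was above background in heterozygous alone, at 8.83. Of the other STAT genes, Stat6 was above background on all 4 arrays, with 11.9 and 7.66 in the homozygous lines, 8.60 in heterozygous and 14.5 in wild type (0.18 ± 0.74, adjusted p = 0.722). Stat2 was above background in ko1 alone on its brightest probe set, at 7.78. The other Stat2 probe set (1421911_at) was above background in ko2 alone. Stat5b was above background in ko2 and wild type, at 7.28 and 8.64.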

How the data were processed

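Per the labels' protocols, RNA came from a Trizol extraction and 8 microgram per array were labelled with biotin. The deposited signal intensities are linear and were made with MAS5, per the submitters' processing notes; no version or scaling target is given in the sources used here. The number of arrays limits the precision.

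Genes were named from the platform annotation (34958 probe sets with 1 symbol, 932 with several, 9211 with none). The brightest probe set by mean stood for each gene, and 13729 genes whose mean exceeded 2.55, the 40th percentile, were tested as log2(signal + 0.675), 0.675 being the 20th percentile of all values; folds on this scale are too small for dim genes. limma 3.58.1 (R 4.3.3; lmFit, contrasts, eBayes with an intensity trend) fitted 1 mean per genotype over all 4 arrays, and Benjamini-Hochberg adjusted p-values were called under 0.05. It has 1 residual degree of freedom, and 47.83 in total with those borrowed across genes; the lone wild type and heterozygous arrays are assumed to vary like the homozygous lines. Intervals are the fit's, shifted by the median gene, while the limma p-values printed beside them belong to the uncentred differences unless said otherwise. "At least" folds set an array at background to its background, and they carry no sampling error. The fit was run on simulated data with planted shifts larger than the Pim3 difference and no shift between arrays. That run does not bear on the Pim3 call.

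The members, lists and rules were chosen with earlier results of these data known. Named pathway genes were those called or, failing that, the 3 of each list with the largest difference for homozygous minus wild type. Alternatives were pseudocounts of a 16th (1/16) and at the 40th percentile, normalizations, filters, probe set rules, no trend, 2 groups and single homozygous lines.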

Additional observations from a re-analysis of the deposited data

How the results depend on the processing

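No paired analysis was possible because the groups share fewer than 2 replicate numbers. Pim3 stood below 0 for homozygous minus wild type under all 13 alternatives (-2.55 to -1.53), and at -1.91 without ko1 and -1.77 without ko2, without a test. Its count among the members, 1 lower, went to 0 after quantile normalization, median centring and spike scaling, without the filter, with probe sets averaged and without the trend; the cause was not tested. With probe sets averaged, homozygous minus wild type turned for Jak1 (-0.46) and Stat5b (-0.17), and so did homozygous minus heterozygous for Il6st (-0.22) and Jak1 (-0.29) and heterozygous minus wild type for Lifr (-0.42). Of 555 recomputed differences of named genes, 41 changed sign, 3 of them from a value larger than its standard error. Socs2 passed for homozygous minus wild type with the larger pseudocount (-1.86, adjusted p = 0.0391) and was -0.23 with probe sets averaged.

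Genes called for homozygous minus wild type (55 higher, 84 lower) were 29 and 26 with a 16th (1/16) of the pseudocount, 26 and 18 without the filter, 7 and 0 with probe sets averaged, 21 and 9 with spike scaling and 0 and 0 without the trend; those lower were 141 with the larger pseudocount, 10 after quantile normalization, 5 after median centring and 54 with all probe sets tested singly. For homozygous minus heterozygous (96 higher, 8 lower) they were 61 and 4 after quantile normalization, 44 and 4 after median centring, 52 and 3 without the filter, 10 and 0 with probe sets averaged, 25 and 3 with spike scaling and 0 and 0 without the trend, with 4 lower at the smaller pseudocount. For heterozygous minus wild type the 2 lower went to 0 in each alternative but the larger pseudocount and the fit without _x_at and _s_at probe sets. Spike scaling and that last fit were chosen after seeing the data. Signals near background limit Lifr, Il6st, Jak1, Junb and Gbx2.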
